A study of Homo sapiens with 12 samples.

Results

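The DNA replication and S-phase genes described here are 42 genes fixed by symbol, all of which were found on the Agilent whole human genome array, as 52 of its 41000 probes. Each gene was represented by its brightest probe, and each value is a log2 ratio of 2 RNAs labeled with Cy5 and Cy3 on 1 array, turned so that the first culture named is the numerator and averaged over a dye-swap pair. The cells are Rh30, a line of alveolar rhabdomyosarcoma, a childhood tumor of the muscle lineage that carries the fusion transcription factor PAX3-FKHR (FKHR is the older name of FOXO1). WT is the untransfected parental line, grown without puromycin. CON is 1 clone with a non-targeting shRNA and KD1 is 1 clone with an shRNA against PAX3-FKHR, both carried in a retroviral vector and grown with 1 μg/mL puromycin. All cultures were grown for 24 h before 500 ng of RNA was labeled. The 12 arrays compare KD1 vs CON, KD1 vs WT and WT vs CON, each in 2 biological replicates, and hold 6 RNA extracts, so that the comparisons share extracts and each clone stands for itself alone. Clone and knockdown cannot be told apart in KD1 vs CON, nor clone, puromycin and knockdown in KD1 vs WT, nor clone and puromycin in WT vs CON.

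DNA replication starts at origins that are licensed in G1, when the MCM2-7 helicase is loaded by CDC6 and CDT1. Helicase activation, primer synthesis by the polymerase alpha-primase complex, loading of the PCNA clamp by replication factor C and the supply of deoxynucleotides then carry the fork through S phase, while the checkpoint kinase CHEK1 protects stalled forks. Many of these genes share control by E2F transcription factors at the G1/S boundary, so that their transcripts tend to move together with the share of cycling cells in a culture.

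The letters of these factors were looked up in the promoters before turning to the signals. RefSeq windows on build GRCh38.p14, from 250 bases before the start to 50 after it, were matched for 37 of the 42 genes; MCM4, MCM5, RPA2, RPA3 and CCNE2 were not matched. An E2F motif, taken as TTTCCCGC, TTTCGCGC, TTTGCCGC or TTTGGCGC on either strand, was found in 19 of the 37 genes (51.4%) and in 3.99% of all 27305 genes with a window. CCAAT, the letters bound by NF-Y, was found in 21 of the 37 (56.8%) and in 39.7% of all genes. TTTGAA, the cell cycle homology region (CHR) letters typical of mitosis genes, was found in 1 of the 37, RRM1, and in 18.2% of all genes. Of 27 mitosis genes with a window, 3 held the E2F letters and 20 the CHR letters (74.1%). These matches are letters in a window and were not tested as binding sites.

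The 250 bases before the start of 4 genes are shown, for a pair near the low end of KD1 vs CON (MCM6 and POLA2) and a pair near its high end (RFC4 and RRM2). These 4 are examples and do not stand for the ends of the list. CHEK1, RFC5 and BLM, with lower means than MCM6, held no E2F match. At the high end, RFC3, next below RRM2, held an E2F match, and BRCA2, the highest, held none. Capitals mark the E2F and CCAAT letters, read on either strand. MCM6 (chr2:135876444-135876693, minus strand) holds 2 copies of a 12-base run in which TTTGGCGC overlaps TTTCGCGC of the other strand, so that 4 E2F matches were counted, and 2 CCAAT letters. POLA2 (chr11:65261712-65261961, plus strand) holds 1 E2F match. RRM2 (chr2:10122489-10122738, plus strand, the first of 2 listed windows) holds 3 CCAAT letters and no E2F match, and RFC4 (chr3:186806483-186806732, minus strand) holds neither.
MCM6: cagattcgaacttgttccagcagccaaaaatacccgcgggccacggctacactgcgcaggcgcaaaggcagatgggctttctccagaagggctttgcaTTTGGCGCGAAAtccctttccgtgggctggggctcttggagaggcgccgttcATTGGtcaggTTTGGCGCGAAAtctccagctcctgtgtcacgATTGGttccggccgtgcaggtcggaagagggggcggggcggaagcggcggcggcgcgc
POLA2: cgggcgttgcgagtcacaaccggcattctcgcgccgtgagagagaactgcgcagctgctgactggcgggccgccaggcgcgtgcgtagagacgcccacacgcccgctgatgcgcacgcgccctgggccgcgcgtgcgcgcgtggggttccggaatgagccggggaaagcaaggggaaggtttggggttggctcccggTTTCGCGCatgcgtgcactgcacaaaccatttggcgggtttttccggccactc
RFC4: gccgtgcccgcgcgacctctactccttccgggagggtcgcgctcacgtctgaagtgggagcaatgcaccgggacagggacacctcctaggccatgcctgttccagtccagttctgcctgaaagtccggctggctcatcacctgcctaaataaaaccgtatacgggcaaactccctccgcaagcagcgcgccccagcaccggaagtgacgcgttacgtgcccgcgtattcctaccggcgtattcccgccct
RRM2: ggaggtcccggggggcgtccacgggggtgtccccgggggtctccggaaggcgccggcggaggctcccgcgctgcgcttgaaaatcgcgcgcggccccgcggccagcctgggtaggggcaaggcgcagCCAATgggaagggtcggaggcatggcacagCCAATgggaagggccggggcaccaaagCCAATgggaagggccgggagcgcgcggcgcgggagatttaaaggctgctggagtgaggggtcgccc

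**Figure D1:**
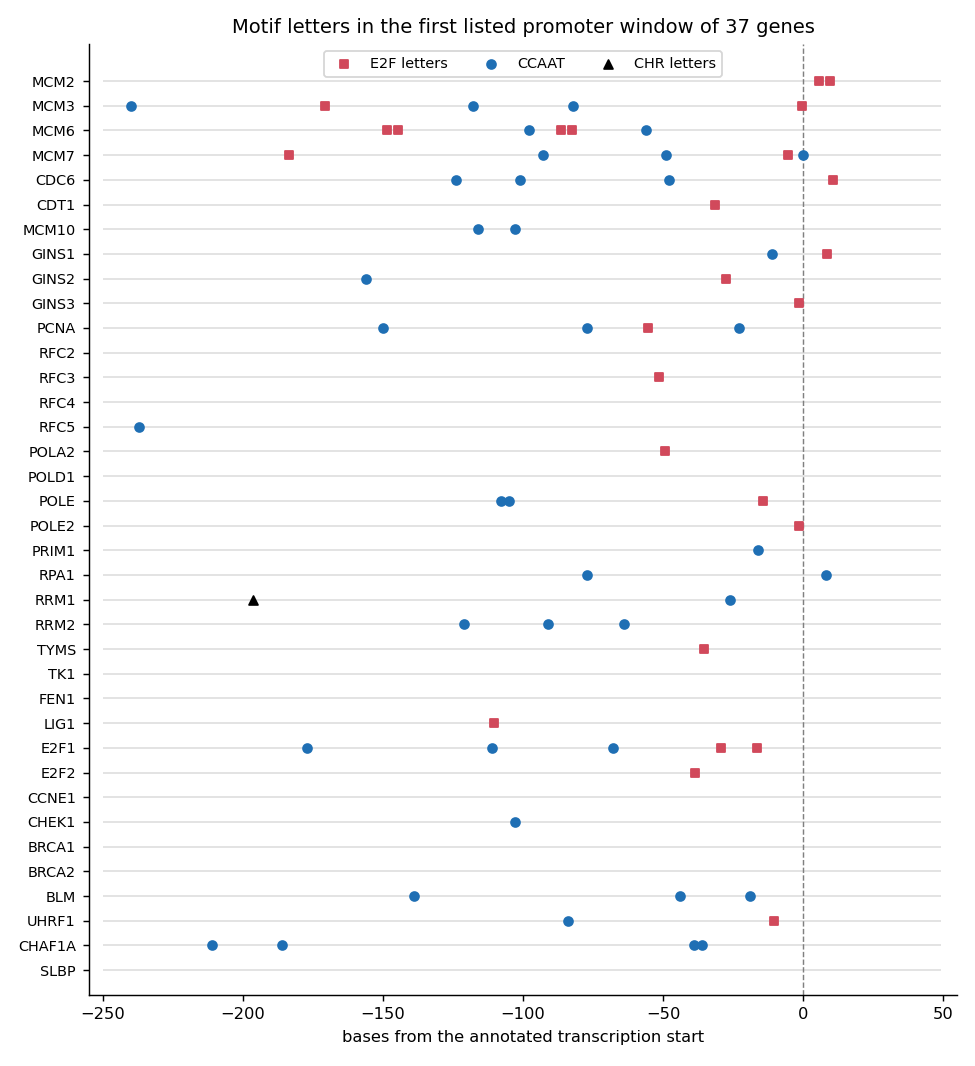
Position of the E2F, CCAAT and CHR letters in the first listed promoter window of each of the 37 matched genes, in bases from the annotated transcription start, with 1 line per gene. Red squares are E2F letters, blue circles CCAAT and the black triangle the CHR letters of RRM1; several genes, such as RFC4, SLBP and TK1, hold none of them in this window.

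The knockdown was checked first. In replicates 1 and 2 the brightest PAX3 probe stood at −0.39 and −0.46 (log2, KD1 vs CON) and at −0.45 and −0.33 (KD1 vs WT). The brightest FOXO1 probe stood at −0.26 and −0.58, and at −0.79 and −0.41. These ratios were below 0 on all 4 arrays of each comparison, but none passed the adjusted threshold (adjusted p from limma between 0.286 and 0.420), and the probes cannot tell the fusion from the unrearranged genes. The muscle lineage markers MYOD1, MYOG and DES were well above background by the scanner's own call in all 8 channels of each culture, as were 8 of the 10 markers listed, whereas TFAP2B was not well above background in any. CD3E, CD79A and KRT14 were well above background in every channel, and the haematopoietic marker PTPRC in none. The WT extract of replicate 2 stood apart in epithelial markers. EPCAM, an epithelial adhesion molecule, was well above background in all 4 of its channels, CDH1 (E-cadherin) in 2 and KRT5 in 1, and in 0 channels of the other 5 extracts. EPCAM had log2 ratios of 0.24 and 5.43 in WT vs CON and of 0.14 and −5.56 in KD1 vs WT, and CDH1 had 0.10 and 2.21, and 0.18 and −1.71. The replicate 2 ratios of KD1 vs WT and WT vs CON rest on that extract, and the direct ratios of KD1 vs CON do not use it. Its part in the results on the replication genes was not tested beyond giving replicate 1 apart. Across the arrays, 71.1% to 73.6% of spots in Cy3 and 64.4% to 67.8% in Cy5 were well above background. All WT vs CON arrays shared 1 slide, while each replicate had its KD1 arrays on a separate slide, so that for KD1 replicate and slide cannot be told apart.

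The 42 genes were bright in every culture. All 42 probes were well above background in all 24 channels, against 59.0% of all probes. A probe was tested where every array had it brighter, in 1 channel or both, than 99% of the negative control spots, which 41 of the 42 met. BRCA2, which met this on 11 of 12 arrays, was not tested and is given by its ratios only.

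None of the 41 tested genes passed an adjusted p of 0.05 by limma in any of the 3 comparisons, where 0.238% of all 21870 probes tested were higher and 0.402% lower in KD1 than in CON, 0.0503% higher and 0.238% lower in KD1 than in WT, and 0.0914% higher and 0.064% lower in WT than in CON. At an unadjusted p under 0.05, 2 genes were higher (RFC4 and RRM2) and 4 lower (MCM6, RFC5, POLA2 and BLM) in KD1 vs CON, beside 8.2% and 8.76% of all probes. In KD1 vs WT there were 1 higher (RRM2) and 3 lower (RPA1, RRM1 and BLM), beside 8.56% and 8.69%, and in WT vs CON 1 higher (RFC3) and 0 lower, beside 8.72% and 9.04%. These counts were near or below the shares over all probes. Of the 8 alternatives that give such a count, 7 also had 0 past the adjusted threshold. The other, fitted to all 12 arrays with a dye effect per slide, counts the dye swaps of an extract as samples and passed 16, 14 and 11 of the 41 genes, beside 32.9%, 35.9% and 35.9% of all probes. The smallest change that passed over all probes was 2.43-fold in KD1 vs CON, 3.03-fold in KD1 vs WT and 3.36-fold in WT vs CON. By its brightest probe, no tested gene reached a mean of 2-fold in any comparison (3.91%, 4.07% and 3.63% of all probes did). The largest mean ratio among these 42 probes, that of the untested BRCA2 in WT vs CON, was 2.09-fold. A second, dimmer probe of RFC3 had a mean of 2.11-fold in KD1 vs WT (adjusted p = 0.130 from limma). With 2 replicates, differences of the size seen in these genes did not pass in any probe, and the intervals given with the genes state what the data allow. In RNA of whole cultures, fewer cells in S phase and less RNA per cell cannot be told apart.

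Most of the 42 genes differed between the replicates of KD1 in the same direction. In KD1 vs CON, the median log2 ratio over the tested genes was 0.00 in replicate 1 and −0.40 in replicate 2, against −0.00 and −0.02 over all probes. In KD1 vs WT it was 0.05 and −0.32, against 0.06 and −0.03, and with median centring in place of lowess it was 0.28 and −0.34. In WT vs CON it was 0.03 and −0.07, against −0.06 and 0.00. The KD1 culture of replicate 2 was thus lower across the list against both other cultures, and the KD1 culture of replicate 1 was not.

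Gene by gene, 39 of the 41 tested genes had a lower KD1 vs CON ratio in replicate 2 than in replicate 1 (53.8% of all probes), as had BRCA2, and 36 of 41 a lower KD1 vs WT ratio (54.8%). In WT vs CON the count was 22 of 41 (45.9% of all probes). The 2 exceptions in KD1 vs CON were RPA3, with −0.45 and −0.42, and BRCA1, with 0.03 and 0.03. Because the KD1 comparisons share the KD1 extracts, the second is no independent repeat of the first.

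**Figure D2:**
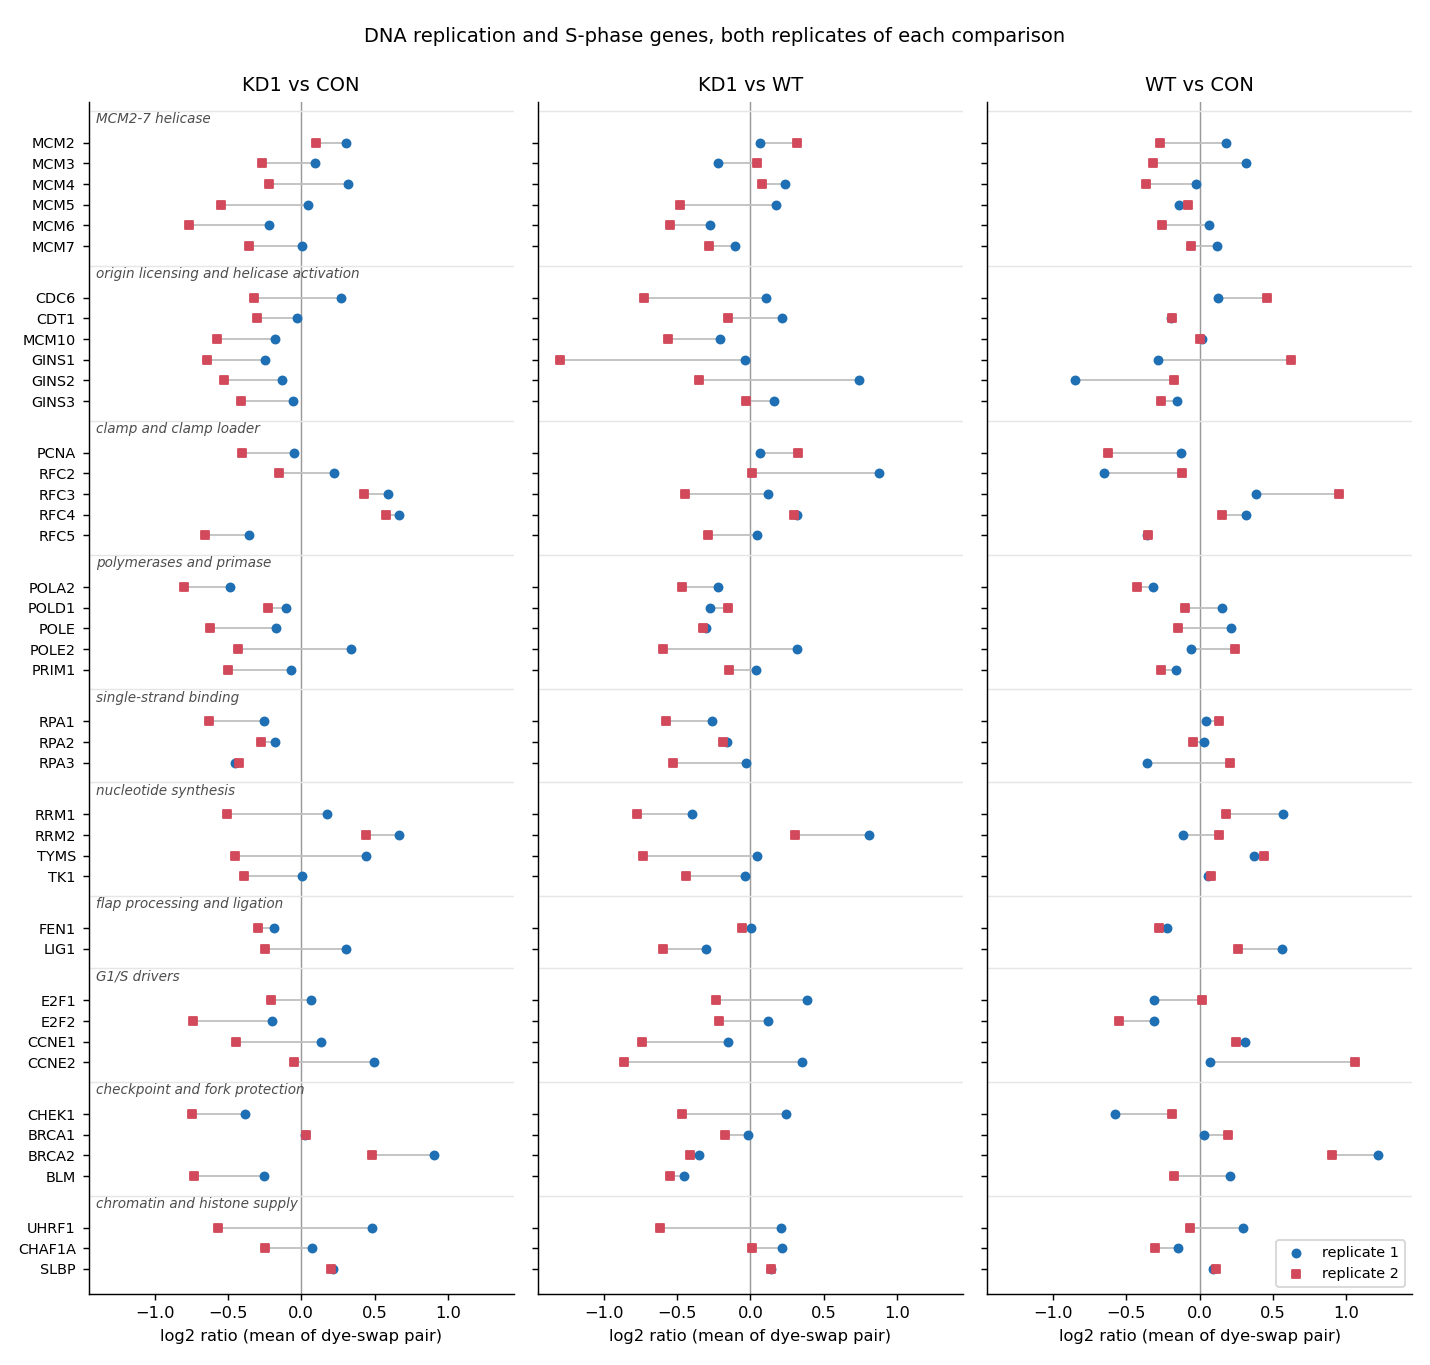
Log2 ratio of each of the 42 genes in KD1 vs CON, KD1 vs WT and WT vs CON, grouped by role, with replicate 1 as a blue circle and replicate 2 as a red square (each the mean of a dye-swap pair) joined by a grey line. In KD1 vs CON the red squares lie to the left of the blue circles for 40 of 42 genes, while RFC3, RFC4, RRM2 and BRCA2 stay above 0 in both.

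The separate signals of the extracts were set beside these ratios. The median difference of replicate 2 minus replicate 1 was −0.41 for KD1, −0.03 for CON and 0.03 for WT over the 41 genes, and −0.06, −0.03 and 0.03 over all probes. In KD1, 39 of 41 genes were lower in replicate 2 (56.2% of all probes), from −0.96 to 0.03. In CON 22 of 41 (53.9% of all probes) and in WT 18 of 41 (46.2%) were lower. Going around the 3 comparisons of a replicate, the ratios of the 41 genes failed to close by a median of 0.03 in replicate 1 and 0.05 in replicate 2. The cause of the difference between the KD1 extracts was not tested.

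**Figure D3:**
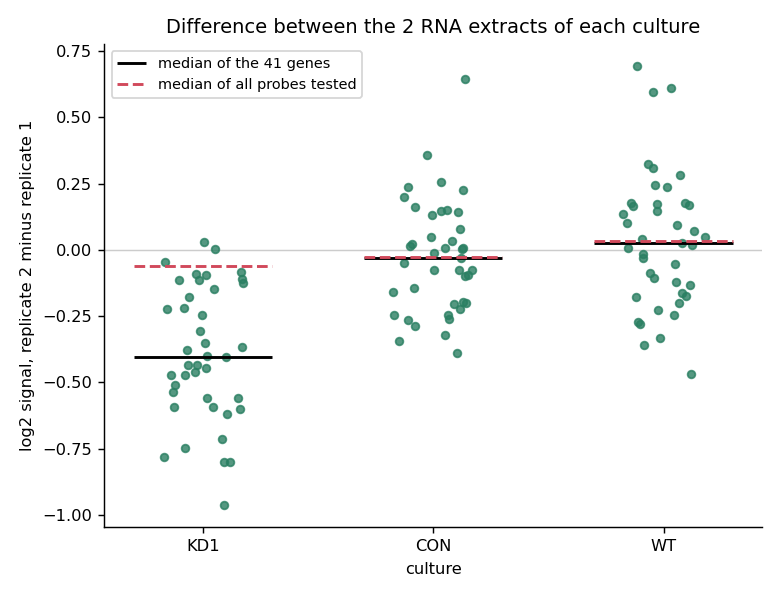
Difference of the log2 signal of replicate 2 minus replicate 1 in KD1, CON and WT for the 41 tested genes (green points), with their median (black line) and the median of all probes tested (dashed red line). The KD1 points center on −0.41 while those of CON and WT center on −0.03 and 0.03, close to the median of all probes.

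Mitosis genes, a list of 32 genes such as the kinases and kinesins of the spindle, were set beside the replication genes. Their median in KD1 vs CON was 0.02 in replicate 1 and −0.55 in replicate 2, and the replicate 2 value was below the replicate 1 value for 32 of 32 (53.8% of all probes). In KD1 vs WT the mitosis genes had medians of −0.29 and −0.51, with 22 of 32 below 0 on all 4 arrays (15.9% of all probes), whereas the replication genes had 0.05 and −0.32, with 11 of 41 below 0 on all 4 arrays (MCM6, MCM10, GINS1, POLA2, POLD1, RPA1, RPA2, RRM1, LIG1, CCNE1 and BLM). No gene of the mitosis list passed the adjusted threshold by limma in any comparison, and at an unadjusted p under 0.05, 5 of them were lower in KD1 than in CON (8.76% of all probes), 9 lower in KD1 than in WT (8.69%), and 3 higher (8.72%) and 1 lower (9.04%) in WT than in CON. In WT vs CON their medians were 0.26 and 0.03, and their median signal in replicate 2 minus replicate 1 was −0.29 in WT, −0.50 in KD1 and 0.02 in CON. The WT extracts thus differed in the mitosis genes, with replicate 1 the higher, and not in the median of the replication genes, at 0.03. The difference between the lists was not tested.

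**Figure D4:**
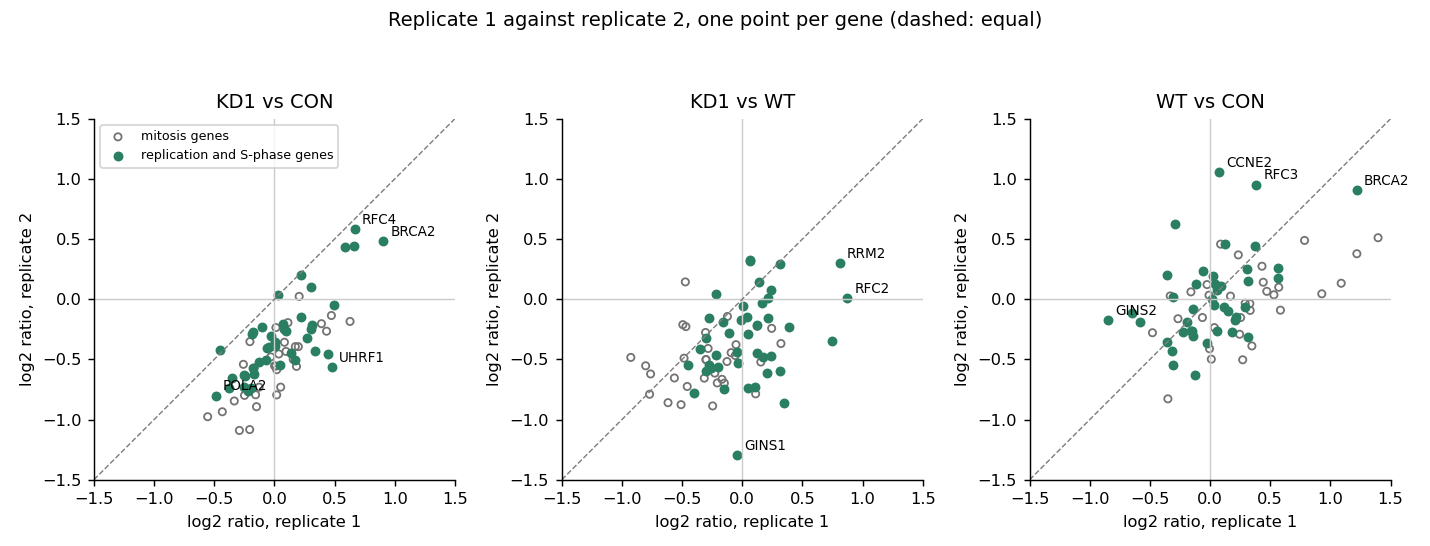
Replicate 1 (x axis) against replicate 2 (y axis) of the log2 ratio in each comparison, with the 42 replication and S-phase genes as filled green points, the 32 mitosis genes as open grey points and the line of equal values dashed. In KD1 vs CON nearly all points lie below the dashed line in a narrow band, and in KD1 vs WT the mitosis points lie further to the left than the replication points.

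The genes are taken by role in what follows, with log2 ratios of replicates 1 and 2 in that order. Values given against CON or against WT are those of KD1. The share of all probes is not given for genes on 1 side of 0 in both replicates, or for extracts of cultures that lie apart. In the MCM2-7 ring, the helicase that opens the duplex at the fork, MCM6 had the lowest means, from −0.22 and −0.76 against CON and −0.27 and −0.55 against WT. Both KD1 extracts of MCM6 lay below those of CON and WT, with a fitted difference of −0.50 from CON (95% interval −0.99 to −0.00, unadjusted p = 0.049, adjusted p = 0.292 from limma). MCM2 went the other way, at 0.31 and 0.10 against CON and 0.06 and 0.32 against WT, above 0 on all 4 arrays of each. MCM7 had 0.00 and −0.36 against CON and −0.11 and −0.28 against WT. MCM3, MCM4 and MCM5 had replicates on opposite sides of 0 in KD1 vs CON, so that the ring was not uniformly lower.

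Of the 6 origin licensing and helicase activation genes, 5 were below 0 in both replicates of KD1 vs CON, as were 19 of the 42 genes. The share of all probes is not given for these counts. MCM10, which helps to activate the loaded helicase, had −0.18 and −0.57 against CON and −0.21 and −0.57 against WT. It was below 0 on all 8 arrays (26.2% of all probes on the 4 of KD1 vs CON and 15.9% on the 4 of KD1 vs WT). A second MCM10 probe had −0.06 and −0.42 against CON, below 0 on 3 of 4 arrays. Against WT that probe had −0.17 and −0.73, below 0 on all 4. GINS1, a subunit of the GINS complex that joins the active helicase, had −0.25 and −0.64 against CON and −0.04 and −1.30 against WT. The replicates of GINS1 in KD1 vs WT thus differed by more than their mean of −0.67 ± 0.89 (SD, n = 2), the lowest of the 42 in that comparison, with an interval from −1.43 to 0.13 around the fitted value. GINS2 had the lowest mean in WT vs CON, from −0.85 and −0.18, and it had 0.74 and −0.35 against WT. The WT extract of replicate 1 was the low one for GINS2, at −0.53 relative to the mean of the 3 cultures, against 0.06 in replicate 2. CDC6, which loads the helicase, had 0.27 and −0.32 against CON, and CDT1, its partner, had −0.03 and −0.30. GINS3 had −0.06 and −0.41.

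Replication factor C, the pentamer that loads PCNA onto primed DNA, held genes on both sides of 0. RFC4, whose probe is at chr3:187990695-187990824 on the array's build NCBI36, as are the positions that follow, was higher in KD1 than in CON, at 0.67 and 0.58, and higher than in WT, at 0.31 and 0.29. It was above 0 on all 8 of these arrays (24.9% of all probes on the 4 of KD1 vs CON and 16.8% on the 4 of KD1 vs WT). Relative to the mean of the 3 cultures, the KD1 extracts lay at 0.33 and 0.29, those of CON at −0.33 and −0.24 and those of WT at 0.00 and −0.05. The fitted difference from CON was 0.60 ± 0.17 (SE; 95% interval 0.18 to 1.01, unadjusted p = 0.013, adjusted p = 0.181 from limma). RFC5, another small subunit of the same complex, was lower in KD1 than in CON, at −0.35 and −0.65, and lower in WT than in CON, at −0.36 and −0.35. RFC5 was thus highest in CON, at 0.24 and 0.34 relative to the mean of the 3 cultures, while KD1 (−0.10 and −0.31) and WT (−0.14 and −0.02) overlapped. RFC2 had 0.87 and 0.01 against WT and −0.65 and −0.12 in WT vs CON, which rest on replicate 1. PCNA, the clamp itself, had −0.05 and −0.40 against CON, 0.06 and 0.32 against WT and −0.13 and −0.63 in WT vs CON. PCNA was 1 of 3 tested genes above 0 on all 4 arrays of KD1 vs WT (16.8% of all probes), with MCM2 and RFC4.

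RFC3, a further clamp loader subunit, and BRCA2, which protects stalled forks, both lie on the long arm of chromosome 13. By their brightest probes both were lowest in CON. The RFC3 probe is at chr13:33308688-33308747 and that of BRCA2 at chr13:31870996-31871055. RFC3 had 0.59 and 0.43 against CON and 0.38 and 0.95 in WT vs CON, with 0.12 and −0.45 against WT. Its fitted difference in WT vs CON was 0.67 ± 0.21 (SE; unadjusted p = 0.021, adjusted p = 0.219 from limma). BRCA2 had 0.91 and 0.48 against CON, 1.22 and 0.90 in WT vs CON, and −0.35 and −0.41 against WT. The 50 nearest tested genes in gene order, 25 on each side, had a median mean ratio of 0.39 around BRCA2 and 0.29 around RFC3 in WT vs CON, and of 0.42 and 0.31 in KD1 vs CON. The same medians were 0.05 and −0.04 in KD1 vs WT. In WT vs CON, 36 of the 50 neighbours of BRCA2 and 37 of the 50 of RFC3 were above 0, and the neighbourhoods share most of their genes. Whether the neighbourhood accounts for the values of the pair was not tested. A second probe of RFC3, at chr13:33438245-33438304, was dimmer, with a mean log2 signal of 5.90 against 10.89. It gave 1.31 and 0.68 against CON, 1.42 and 0.73 against WT, and −0.27 and 0.02 for WT vs CON. The RFC3 probes therefore disagree except on KD1 vs CON.

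**Figure D5:**
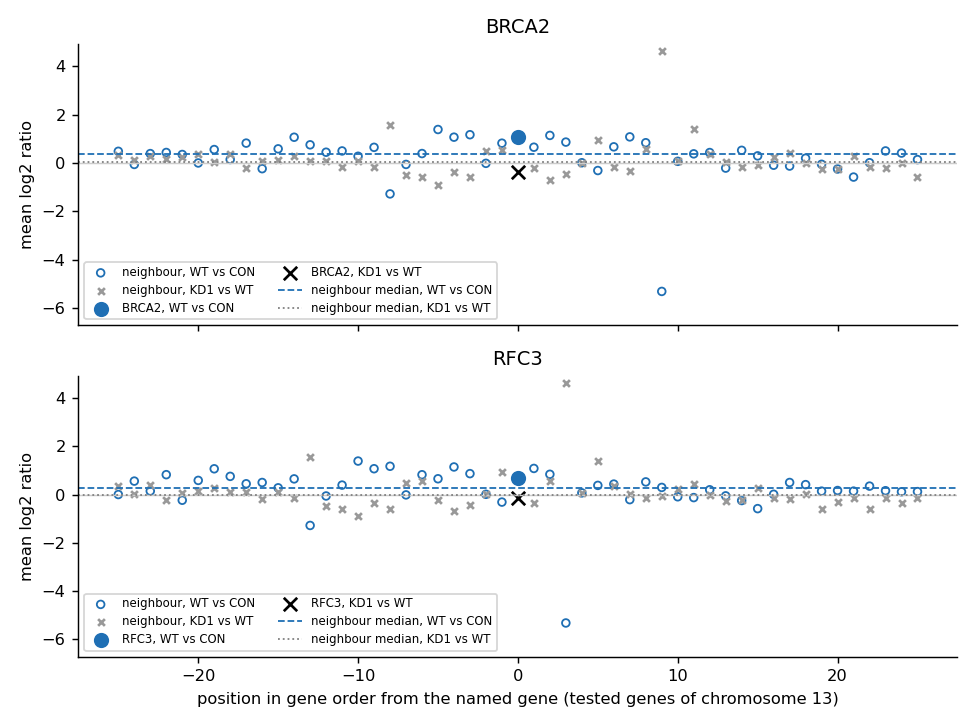
Mean log2 ratio of the 25 tested genes on each side of BRCA2 (top) and RFC3 (bottom) in gene order along chromosome 13, for WT vs CON (open blue circles) and KD1 vs WT (grey crosses), with the named gene as a large filled circle and a black cross and the neighbour medians as lines. The neighbour medians of WT vs CON, 0.39 and 0.29, lie above 0, and those of KD1 vs WT, 0.05 and −0.04, lie near it.

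Some of the other genes were read against their neighbourhoods in the same way. Around CHEK1 on chromosome 11 and BLM on chromosome 15 the 50 neighbours had medians of −0.36 and −0.30 in KD1 vs CON, in the direction of the genes themselves. Around RRM2 on chromosome 2 and RFC4 on chromosome 3 they had 0.26 and 0.19. Around POLA2 on chromosome 11 the median was −0.17, and around MCM6 on chromosome 2 it was 0.05, opposite to the gene. Around MCM2 and TK1 the medians were 0.21 and −0.21, close to the means of these genes, 0.20 and −0.19. Around RPA1, RPA2 and RPA3 they were −0.24, 0.29 and −0.23, opposite to the gene for RPA2. In KD1 vs WT the medians were 0.31 around RRM2, 0.14 around MCM2, −0.32 around RPA3 and 0.11 around RRM1, opposite to the gene for RRM1. The part of neighbouring genes in these values was not tested.

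By their brightest probes, the polymerase and primase genes were all below 0 by their mean in KD1 vs CON. The median of these means was −0.17 over the 41 tested genes and −0.01 over all probes. POLA2, the regulatory subunit of polymerase alpha (probe at chr11:64818687-64819633), had the lowest mean of the 42 against CON, from −0.49 and −0.80, with −0.22 and −0.46 against WT and −0.32 and −0.43 in WT vs CON. Relative to the mean of the 3 cultures, POLA2 was at −0.24 and −0.42 in KD1, at 0.27 and 0.41 in CON and at −0.03 and 0.01 in WT. The cultures did not overlap, and all 4 arrays of each comparison had the same sign. The fitted difference from CON was −0.67 ± 0.18 (SE; 95% interval −1.11 to −0.23, unadjusted p = 0.010, adjusted p = 0.165 from limma). POLE, the catalytic subunit of the leading strand polymerase, had −0.17 and −0.62 against CON and −0.30 and −0.32 against WT. Its probe was below 0 on 3 of 4 arrays against CON and on 2 of 4 against WT. A second, dim POLE probe, not tested, went the other way against CON, at 0.88 and 0.50, and had 0.14 and −0.41 against WT. POLD1, the catalytic subunit of polymerase delta, had −0.11 and −0.23, and −0.28 and −0.15. PRIM1, the primase, had −0.07 and −0.50 against CON, while POLE2 had replicates on opposite sides, at 0.34 and −0.43.

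The 3 subunits of RPA, which coats single-stranded DNA behind the helicase, were below 0 in both replicates of both KD1 comparisons. Of all 41 tested genes, 10 were. RPA1, the large subunit, had −0.25 and −0.63 against CON and −0.26 and −0.57 against WT. RPA2 had −0.18 and −0.28, and −0.16 and −0.19. RPA3 had −0.45 and −0.42, and −0.03 and −0.53. RPA1 had a fitted difference of −0.45 from WT (unadjusted p = 0.050, adjusted p = 0.290 from limma).

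Ribonucleotide reductase makes deoxynucleotides from ribonucleotides and is built from RRM1 and RRM2, and its subunits differed in direction. RRM2, the small subunit that is limiting in S phase (probe at chr2:10186825-10186884), was higher in KD1 at 0.66 and 0.44 against CON and at 0.81 and 0.30 against WT, while WT vs CON was −0.12 and 0.13. Relative to the mean of the 3 cultures the KD1 extracts were at 0.49 and 0.25 and the other 4 extracts between −0.31 and −0.06. The fitted differences were 0.56 ± 0.19 from CON and 0.55 ± 0.19 from WT (SE), with adjusted p of 0.238 and 0.240 from limma and unadjusted p of 0.029 and 0.030. A second RRM2 probe had 0.67 and 0.41 against CON and 0.57 and 0.17 against WT. RRM1, the large subunit, was lower in KD1 than in WT, at −0.40 and −0.78 (unadjusted p = 0.042, adjusted p = 0.273 from limma), with 0.17 and −0.51 against CON. TYMS, which makes thymidylate, had 0.44 and −0.45 against CON and 0.05 and −0.73 against WT. TK1, the thymidine kinase of S phase, had 0.00 and −0.39, and −0.04 and −0.44. RRM2 was thus the one nucleotide synthesis gene above 0 in both replicates of a KD1 comparison.

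Okazaki fragments are trimmed by FEN1 and sealed by LIG1. LIG1 was higher in WT, at 0.56 and 0.26 in WT vs CON, with KD1 vs WT at −0.30 and −0.60. The WT extracts of LIG1 lay at 0.29 and 0.29 relative to the mean of the 3 cultures, above all 4 extracts of the clones, but the fitted difference from CON of 0.43 had an adjusted p of 0.332 from limma. FEN1 had −0.19 and −0.29 against CON and −0.22 and −0.28 in WT vs CON, and its second probe −0.21 and −0.31, and −0.22 and −0.27.

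Among the G1/S drivers, E2F2 was highest in CON, with −0.20 and −0.74 against CON and −0.31 and −0.55 in WT vs CON. E2F1, the founding activator of the family, had 0.07 and −0.20 against CON and 0.38 and −0.23 against WT. Of the E-type cyclins, which activate CDK2 at the G1/S boundary, CCNE1 had −0.15 and −0.74 against WT and 0.31 and 0.25 in WT vs CON. CCNE2 had 0.07 and 1.06 in WT vs CON and 0.35 and −0.86 against WT, where the second value of each uses the WT extract of replicate 2. Its signal in replicate 2 minus replicate 1 was 0.59 in WT, −0.59 in KD1 and −0.25 in CON. Its interval in WT vs CON ran from −0.26 to 1.33.

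Of the checkpoint and fork protection genes, BLM and CHEK1 were among the lowest against CON. BLM, a helicase that resolves recombination intermediates, had −0.26 and −0.73 against CON and −0.45 and −0.55 against WT. Both KD1 extracts of BLM lay below those of CON and WT, with fitted differences of −0.49 ± 0.19 and −0.50 ± 0.19 (SE; unadjusted p of 0.046 and 0.043, adjusted p of 0.285 and 0.274, limma). CHEK1 was highest in CON, at −0.38 and −0.74 against CON and −0.58 and −0.19 in WT vs CON, with KD1 vs WT at 0.24 and −0.47. BRCA1, a repair scaffold, had 0.03 and 0.03 against CON, −0.01 and −0.17 against WT, and 0.03 and 0.19 in WT vs CON.

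Of the chromatin and histone supply genes, SLBP, which binds the stem-loop of histone mRNAs, had the closest replicates, at 0.22 and 0.20 against CON, 0.14 and 0.14 against WT and 0.09 and 0.11 in WT vs CON. UHRF1, which brings maintenance methylation to new DNA, was among the genes with the widest gap, at 0.48 and −0.56 against CON, and its second probe had 0.47 and −0.64. CHAF1A, a subunit of the chromatin assembly factor, had 0.08 and −0.25.

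Set against the promoter letters, the gap between the KD1 replicates was seen with and without an E2F match. The 19 tested genes with the letters had medians of 0.00 and −0.41 in KD1 vs CON, and the 17 without had 0.00 and −0.39. The replicate 2 value was the lower one in 19 of 19 and in 16 of 17. In KD1 vs WT the medians were 0.06 and −0.35 with the letters and 0.01 and −0.17 without. The difference between these sets was not tested.

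In WT vs CON, which compares cultures that differ in the clone and in puromycin but carry no knockdown, 14 of 41 genes were below 0 on all 4 arrays (24.7% of all probes) and 8 above 0 on all 4 (21.0%). The lower ones were MCM4, MCM5, CDT1, GINS2, GINS3, PCNA, RFC2, RFC5, POLA2, PRIM1, FEN1, E2F2, CHEK1 and CHAF1A. The higher ones were CDC6, RFC3, RFC4, RPA1, RRM1, TYMS, LIG1 and CCNE1. In KD1 vs CON, 13 of 41 were below 0 on all 4 arrays (26.2% of all probes) and 5 above (24.9%), the latter being MCM2, RFC3, RFC4, RRM2 and SLBP. The spread of WT vs CON, from −0.51 to 0.67 in the means of the tested genes, was about that of KD1 vs CON, from −0.65 to 0.62, and of KD1 vs WT, from −0.67 to 0.56.

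The rest of the replication pathway, 57 further genes such as the origin recognition complex, other polymerase subunits and the histone chaperones, was read in the same way. In replicates 1 and 2 their medians were 0.04 and −0.22 for KD1 vs CON, 0.08 and −0.22 for KD1 vs WT, and 0.02 and 0.03 for WT vs CON. The replicate 2 value was below the replicate 1 value for 53 of 57 in KD1 vs CON (53.8% of all probes). None passed the adjusted threshold by limma in any comparison. At an unadjusted p under 0.05, 2 of them were higher and 5 lower in KD1 than in CON (8.2% and 8.76% of all probes), 1 higher and 2 lower in KD1 than in WT (8.56% and 8.69%), and 2 higher and 4 lower in WT than in CON (8.72% and 9.04%).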

How the data were processed

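Per the labels and headers, the authors hybridized 12 2-color arrays and extracted them with Agilent Feature Extraction 10.5.1.1. The deposited intensity values are processed signals after detrending, subtraction of background and lowess fitting of the dyes on each array, where spots at background carry a surrogate. The authors deposited the ratio also on the log10 scale per spot and, in the series table, on the log2 scale per probe. Log2 ratios of the processed intensities were computed here without outlier-flagged spots (95 to 188 per array), averaged over spots and dye-swap pairs, and each replicate's 3 comparisons were reduced by least squares to 3 extract values. These 6 extract values were fitted with limma 3.58.1 in R 4.3.3 (lmFit, eBayes) on culture and replicate, which leaves 2 residual degrees of freedom; p-values were adjusted by Benjamini-Hochberg over 21870 of 41000 probes. Probes entered the test where every array showed them, in 1 channel or both, brighter than the 99th percentile of its 153 negative controls. Fitted differences can therefore deviate slightly from the means of direct ratios. The steps were tested on simulated data in which 200 probes were shifted by 2 log2 units in KD1. Of these 84.1% were recovered in KD1 vs CON, with 9 false calls on average. The shift was larger than the differences seen in these genes, so the simulation cannot tell whether differences of their size would be found. The number of arrays limits the precision, and p-values measure only the spread between 2 biological replicates, pooled over the 3 cultures. Limma moderates this spread with a prior of 3.84 degrees of freedom taken from all probes tested.

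Replicate numbers pair the extracts by design, since same-numbered extracts were hybridized together. The deviations of same-numbered extracts from their culture means correlated across probes with 0.54 for KD1 and CON, −0.07 for KD1 and WT and −0.02 for WT and CON.

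The 42 genes and the lists of 57 pathway, 32 mitosis and marker genes were chosen with earlier results of these data known. Values are given for every gene past the adjusted threshold, for the 4 highest and 4 lowest means of each comparison and for at least 1 gene of each role group; the remaining genes are given in shorter form, beyond that rule. Differences between extracts of a culture use separate-channel signals after quantile normalization. Promoter letters come from RefSeq windows on GRCh38.p14. Alternatives were direct ratios alone, no replicate block, normexp with an offset of 50 and loess, median centring, the series table, other filters, the mean of a gene's probes, a fit to 12 arrays with slide dye effects, and each replicate left out. Tables were made with pandas 2.3.3 and numpy 2.4.6 in Python 3.11.15, and figures with matplotlib 3.10.9.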

Additional observations from a re-analysis of the deposited data

How the results depend on the processing

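The count of 0 genes past adjusted p 0.05 in each comparison stayed at 0 for the 41 tested genes with direct ratios, without the replicate block, with normexp and loess, median centring, the series table and the stricter filter, and for all 42 with no filter, and became 16, 14 and 11 (KD1 vs CON, KD1 vs WT and WT vs CON, in that order throughout) in the fit to 12 arrays with slide dye effects, which counts dye swaps of the same extracts as samples. There the counts were 20, 17 and 19 for the other pathway genes and 11, 18 and 10 for the mitosis genes. The mean of a gene's probes and the fits without a replicate give medians and no such count. With direct ratios alone, 1 other pathway gene passed for KD1 vs WT and 1 for WT vs CON.

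The median difference over the tested genes was −0.18 in KD1 vs CON and was 0.02 without replicate 2 and −0.37 without replicate 1. In KD1 vs WT it was −0.15, with 0.06 and −0.36, and in WT vs CON 0.00, with 0.02 and −0.06. Without the replicate block, fitted on separate channels, these medians were −0.16, −0.16 and −0.02. With median centring in place of lowess the WT vs CON median was −0.14, the KD1 vs WT median −0.04, and the replicate medians of KD1 vs WT were 0.28 and −0.34. For the other pathway genes, the WT vs CON median of 0.01 became 0.0218 with direct ratios, 0.0238 without the replicate block, 0.0247 with normexp and loess, and −0.0393 with median centring. The cause was not tested.

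Over all probes, 140, 63 and 34 passed. With direct ratios these counts were 387, 433 and 955, with median centring 67, 11 and 6, with the stricter filter 54, 11 and 16, with normexp and loess 0, 0 and 1 (3503, 3751 and 3979 at an unadjusted p under 0.05 in limma), and in the fit to 12 arrays 7193, 7853 and 7860. Without the filter 84 passed in WT vs CON, and without the block 194, 88 and 37. BRCA2 and 1 dim probe of POLE were too close to the negative controls to be tested.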

Other observations

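Some genes of the further pathway list stood apart and were chosen after their values were seen. GINS4, the remaining GINS subunit, was lowest in WT, with log2 ratios of 1.53 and 1.34 for KD1 over WT, −1.34 and −1.55 for WT over CON, and 0.19 and −0.77 for KD1 over CON. Its adjusted p from limma was 0.101 (KD1 vs WT) and 0.081 (WT vs CON), and its WT extracts were both at −0.96 relative to the mean of the 3 cultures. The 50 tested genes nearest to GINS4 had medians of −0.13 and −0.05 in these comparisons, of the opposite sign in KD1 vs WT. POLD4, the smallest subunit of polymerase delta, was highest in CON, at −1.21 and −0.97 (KD1 vs CON) and −0.61 and −0.89 (WT vs CON), with adjusted p of 0.089 and 0.158 from limma. Its neighbours had a median of −0.30 in KD1 vs CON, with 43 of 50 below 0. TFDP1, the dimer partner of the E2F proteins, lies near the end of chromosome 13 and stood at 0.89 and 0.48 (KD1 vs CON) and 0.53 and 0.77 (WT vs CON), where the 28 neighbours available had medians of 0.80 and 1.00, with 27 and 26 of 28 above 0. Of the listed partners, GINS1 stood at −0.29 and 0.62, GINS2 at −0.85 and −0.18 and POLD1 at 0.15 and −0.10 in WT vs CON.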
